A study of Homo sapiens with 3 samples.

Results

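The peptidylarginine deiminases PADI1, PADI2, PADI3 and PADI4 were followed by their mRNA in NB4 cells, a human acute promyelocytic leukaemia line whose cells are held at the promyelocyte stage. All 4 symbols matched a row, by Ensembl ID, among the 57773 rows of the deposited count table. The table held 3 libraries of polyadenylated RNA. There were 2 libraries of NB4 cells carrying a short hairpin RNA (shRNA) against ARID1B, 1 with hairpin 2 and 1 with hairpin 3, and 1 library of NB4 cells carrying a non-targeting control shRNA. All cells were grown in RPMI medium supplemented with fetal bovine serum, and no drug, time or dose is given. ARID1B is a subunit of the BAF chromatin remodelling complex, and the study's design asks what its silencing does in these cells.

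Peptidylarginine deiminases convert arginine residues of proteins into citrulline, which removes a positive charge, and they need calcium to be active. PADI4 carries a nuclear localisation signal and citrullinates histones, and in neutrophils this loosens chromatin that is then released as extracellular traps. PADI2 is the most widely expressed member and is found in muscle, brain and several white blood cells, while PADI1 and PADI3 are best known from epidermis and hair follicles, where they act on filaggrin, keratins and trichohyalin. The genes lie side by side on chromosome 1, together with PADI6 of the oocyte, which was not matched to a row here.

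The family was taken up with the values of ARID1B shRNA against control shRNA already known. The levels and ratios of its members are therefore given as a description without a test. The 95% intervals given with ratios cover counting error only, since each hairpin stands in 1 library and the reads carry no molecular identifiers. Whether they stem from separate infections or cultures is not stated in the labels.

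To show how the start regions of the members differ, the 250 bases before the RefSeq start were taken for PADI4 and PADI2, the members with counts enough to compare, and for PADI1 (RefSeq, GRCh38.p14, printed 5′ to 3′ on the gene's own strand). Capitals mark matches to 6 motifs, each searched on both strands. The letters GGGCGG stand for the GC box that Sp1 and its relatives bind. The box of the factor NF-Y was searched as CCAAT. The site of AP-1, the dimer of JUN and FOS proteins, was searched as TGACTCA. A site for the GATA family of transcription factors was written AGATAA. The TATA box, which places the start of transcription, was written TATAAA. The half-site of retinoid and other nuclear receptors was written AGGTCA. The 3 windows lie at chr1:17307947-17308196 on the plus strand for PADI4, chr1:17119452-17119701 on the minus strand for PADI2 and chr1:17204878-17205127 on the plus strand for PADI1.
PADI4: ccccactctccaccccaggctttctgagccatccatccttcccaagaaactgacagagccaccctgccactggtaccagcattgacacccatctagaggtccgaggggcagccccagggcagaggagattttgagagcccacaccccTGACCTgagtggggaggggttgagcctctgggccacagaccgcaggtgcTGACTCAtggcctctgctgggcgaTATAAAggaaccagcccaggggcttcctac
PADI2: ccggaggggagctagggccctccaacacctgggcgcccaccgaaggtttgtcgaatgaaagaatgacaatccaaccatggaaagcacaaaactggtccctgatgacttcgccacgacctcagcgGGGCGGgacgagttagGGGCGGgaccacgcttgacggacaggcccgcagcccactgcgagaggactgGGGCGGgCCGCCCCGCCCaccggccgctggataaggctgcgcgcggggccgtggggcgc
PADI1: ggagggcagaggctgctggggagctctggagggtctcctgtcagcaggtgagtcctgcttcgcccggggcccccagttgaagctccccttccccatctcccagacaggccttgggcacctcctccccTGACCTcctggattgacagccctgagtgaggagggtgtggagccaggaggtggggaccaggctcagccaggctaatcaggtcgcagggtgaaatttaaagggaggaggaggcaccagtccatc

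The PADI4 window held 1 TATA box from 30 to 25 bases before the start, 1 AP-1 site from 54 to 48 bases before it and 1 half-site, read on the other strand, from 103 to 98 bases before it. Among the 35116 windows of the same length in the RefSeq table, 10.7% held a TATA box, 4.2% an AP-1 site and 12.1% a half-site. The PADI2 window held none of these and instead 5 GC boxes between 126 and 42 bases before the start, the last 2 of which overlap by 1 base. A GC box was present in 42.6% of all windows. PADI2 also had 24 CpG dinucleotides, against 3 each in PADI4 and PADI1 and a median of 11 over all windows. PADI1 held 1 half-site. CCAAT, present in 32.0% of all windows, and AGATAA, in 9.17%, were in none of the 3 windows. Neighbouring genes of one family thus start from unlike windows, PADI2 from a CpG-rich one and PADI4 from a CpG-poor one with a TATA box. These matches are strings of letters, not measured binding.

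The libraries held 59997475 counts under hairpin 2, 62954803 under hairpin 3 and 61640692 in the control. Levels are given in CPM, counts scaled to library size after correction by the trimmed mean of M values (TMM). ARID1B itself had 2209 counts under hairpin 2 and 2234 under hairpin 3, against 5268 in the control, which is 43.3% of the control CPM under hairpin 2 and 42.2% under hairpin 3. Both hairpins thus left ARID1B at nearly the same level, with a hairpin 2 to hairpin 3 ratio of 1.03 (0.966 to 1.09). Of the promyelocyte markers, MPO had 836096 and 741714 counts under the hairpins, against 682719 in the control, while ELANE had only 4 and 1 counts, against 10 in the control.

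PADI4 was the member that stood furthest from the control. It had 1557 counts under hairpin 2 and 677 under hairpin 3, against 137 in the control. This was 25.9 CPM under hairpin 2 and 10.9 CPM under hairpin 3, against 2.21 CPM in the control. Both hairpin libraries were above the control, and they also stood apart from each other. PADI4 was 11.7-fold the control under hairpin 2 (9.85 to 14.1) and 4.92-fold under hairpin 3 (4.09 to 5.96). On the log2 CPM scale, where a prior of 2 counts was added, the differences from control were 3.53 under hairpin 2 and 2.28 under hairpin 3. The ARID1B shRNA libraries averaged 18.4 ± 10.6 CPM (SD, n = 2), so the spread between hairpins was large beside the mean.

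**Figure D1:**
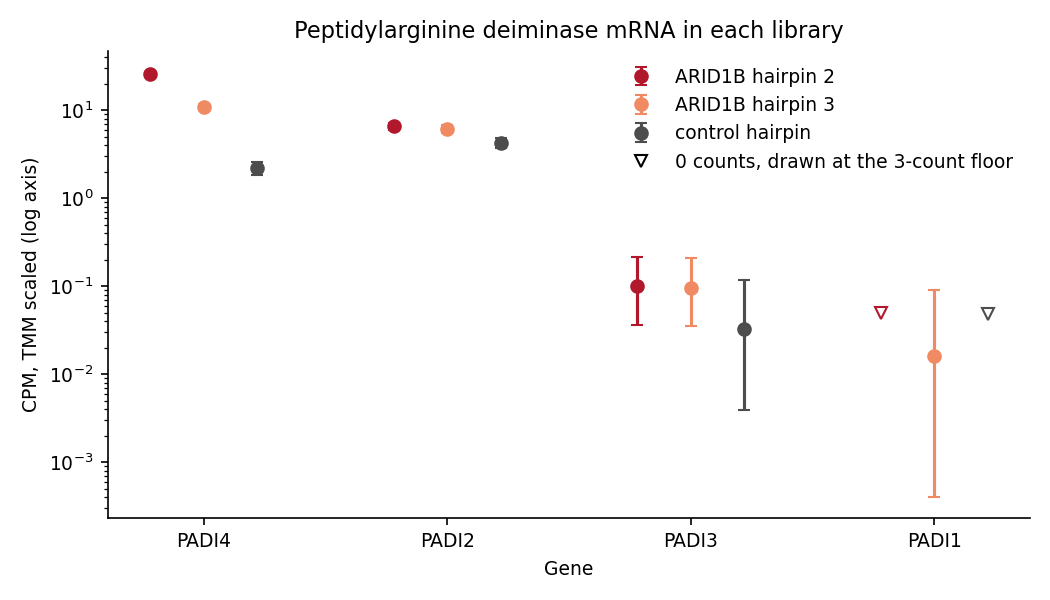
CPM after TMM scaling (log axis) of PADI4, PADI2, PADI3 and PADI1 in the library of each ARID1B hairpin and in the control library. Points are single libraries, bars are exact 95% Poisson intervals of the count, and open triangles mark libraries with 0 counts, drawn at the level of 3 counts. PADI4 lies at 25.9 and 10.9 CPM under the hairpins against 2.21 CPM in the control, PADI2 at 6.54 and 6.10 CPM against 4.24 CPM, and the other members near the floor.

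The hairpin 2 to hairpin 3 ratio of ARID1B mRNA was 1.03 (0.966 to 1.09). That of PADI4 was 2.38 (2.18 to 2.61), a log2 difference of 1.25. Of the 20382 genes that passed the filter on low counts, 1.88% (383 genes) had a difference between the hairpins at least as large in either direction. Higher values under hairpin 2 were common among the genes that rose. Of the 1119 genes called higher over all genes, 932 (83.3%) had more CPM under hairpin 2 than under hairpin 3, with a median log2 difference of 0.22, against -0.001 over all genes tested. A source of this gap between the hairpins was not tested.

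PADI2 had 393 counts under hairpin 2 and 380 under hairpin 3, against 263 in the control. This was 6.54 and 6.10 CPM under hairpins 2 and 3, against 4.24 CPM in the control. The ratio to control was 1.54 (1.32 to 1.81) under hairpin 2 and 1.44 (1.23 to 1.69) under hairpin 3. Both hairpin libraries lay above the control and close together, with a hairpin 2 to hairpin 3 ratio of 1.07 (0.929 to 1.24).

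PADI3 and PADI1 were barely detected. PADI3 had 6 counts under each hairpin, against 2 in the control. Its ratio to control was 3.10 under hairpin 2 (0.554 to 31.4) and 2.99 under hairpin 3 (0.534 to 30.3), intervals wide enough to leave its direction undetermined at this depth. PADI1 had 0 counts under hairpin 2 and 1 under hairpin 3, against 0 in the control. By the rule of 3, a one-sided 95% limit, a count of 0 allows up to 3 counts, or 0.0499 CPM under hairpin 2 and 0.0483 CPM in the control, so no ratio was formed for PADI1. The two-sided exact 95% interval of a count of 0 reaches 3.69 counts, and the plot of the members draws no interval there. Both genes were below the filter on low counts.

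Within the family the balance between PADI4 and PADI2 shifted. Of the counts on all 4 genes, PADI4 held 79.6% under hairpin 2 (95% Wilson interval 77.8 to 81.3) and 63.6% under hairpin 3 (60.7 to 66.5), against 34.1% in the control (29.6 to 38.8). Levels of different genes are comparable only per length, taken here as the union of annotated exons (2971 bases for PADI4 and 5984 for PADI2). PADI4 stood at 8.72 and 3.66 CPM per kilobase under hairpins 2 and 3, against 0.743 in the control, and PADI2 at 1.09 and 1.02 under the hairpins, against 0.708 in the control. The level of PADI4 per kilobase was 7.98-fold that of PADI2 under hairpin 2 (7.14 to 8.94) and 3.59-fold under hairpin 3 (3.16 to 4.08), against 1.05-fold in the control (0.847 to 1.29). In the control library the 2 genes thus did not differ beyond counting error, and under both hairpins PADI4 led. In GENCODE 29 none of the 4 genes shares exon bases with another annotated gene.

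A fit over all genes set the ARID1B shRNA libraries against the control with edgeR (quasi-likelihood test), calling genes with a Benjamini-Hochberg adjusted p under 0.05. With 2 libraries against 1 it had 1 residual degree of freedom, the difference between the hairpins, and the control is assumed to vary like them. The fit drew the spread of each gene toward that of other genes, with 14.8 prior degrees of freedom. The SE of a gene is therefore not its own spread between hairpins, which for PADI4 was 0.885 (SD of log2 CPM, n = 2). It called 8.70% of the 20382 genes (5.49% higher and 3.21% lower). Of the 4 members, 2 were tested, and PADI4 was among the called genes while PADI2 was not. Since the family was chosen on this contrast, nothing is read from that count. The fitted log2 fold change was 3.06 ± 0.394 (SE) for PADI4, the 97th largest in the fit, and 0.58 ± 0.21 for PADI2. The SE of PADI4 depended on the fit. It was 1.08 with robust empirical Bayes, 1.03 with the DESeq2 test and 0.781 without a filter, and from 0.334 to 0.521 in the other alternatives. PADI4 was not called with robust empirical Bayes or without a filter on low counts, where edgeR called 0 genes (3218 at an unadjusted p under 0.05; DESeq2 on filtered genes called 1052).

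Hairpin 2 put 5.47% of the genes tested at least 2-fold above the control and hairpin 3 put 3.76% there. PADI4 was above that level under both hairpins. In the log2 difference from control, 51 genes exceeded PADI4 under hairpin 2 and 102 under hairpin 3. For PADI2, below 2-fold under both, these numbers were 2165 and 2058. In CPM, PADI4 stood at the 66th percentile of the genes tested under hairpin 2 and the 52nd under hairpin 3, against the 34th in the control.

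**Figure D2:**
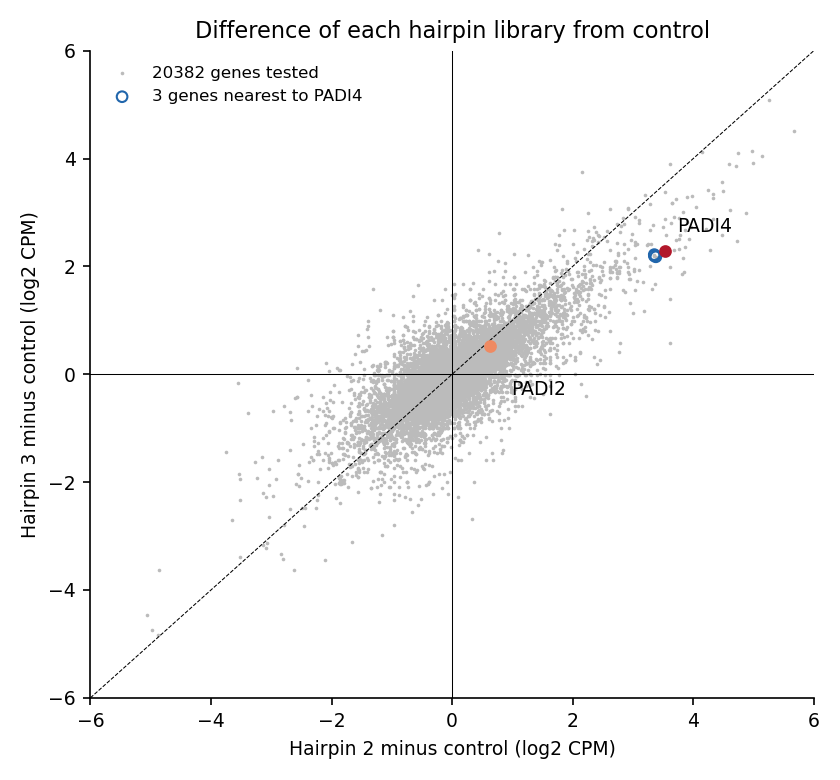
Log2 CPM difference from the control library under hairpin 2 (horizontal axis) and hairpin 3 (vertical axis) for the 20382 genes tested, 1 point per gene. Both axes share the control library, so points spread along the dashed line of equality in part for that reason. PADI4 (3.53 and 2.28) lies at the upper right below that line, beside the 3 genes nearest to it, and PADI2 (0.62 and 0.52) lies close to it near the centre.

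The genes with a pattern most like each member were found by the distance between their pairs of log2 differences from control, over 14977 genes with a mean of at least 1 CPM. The measure uses 3 libraries and 1 shared control, so it describes likeness in these libraries only. Nearest to PADI4 were DEFA3 (distance 0.184), CD74 (0.19) and PCYT1B (0.198). DEFA3, a neutrophil alpha-defensin with a near-identical copy in DEFA1 that makes its counts uncertain, had 200 and 89 counts under hairpins 2 and 3, against 18 in the control. CD74, which encodes the class II invariant chain, had 335 and 157 counts under the hairpins, against 32 in the control. PCYT1B, an enzyme of phosphatidylcholine synthesis, had 147 and 67, against 13. That all 3 were higher under hairpin 2 than under hairpin 3, as PADI4 was, follows from how they were picked. Nearest to PADI2 were the kinesin gene KIF13B (distance 0.00848), FNIP2 (0.0138), whose protein binds folliculin, and the ETS transcription factor ELF4 (0.0175). For both members these distances lie within the counting error of the member's own ratios to control, so which genes rank nearest is uncertain.

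Of the genes around the PADI locus 1 was called, ATP13A2, which was lower. Of 11 listed neighbours matched to a row, 6 were tested, and 0 rose and 1 fell in edgeR (2 at an unadjusted p under 0.05; 0 higher and 1 lower with DESeq2), with a median log2 fold change of -0.44. Over all genes 5.49% were called higher and 3.21% lower, and 0 higher and 1 lower among 6 are too few to tell from that background. ATP13A2, a lysosomal transport ATPase, had 1426 and 1496 counts under hairpins 2 and 3, against 2420 in the control (log2 fold change -0.71 ± 0.134, edgeR quasi-likelihood adjusted p = 0.00285). SDHB, a subunit of succinate dehydrogenase that lies next to PADI2, had 5388 and 5193 counts under the hairpins, against 4630 in the control (0.21 ± 0.13, not called). RCC2, a chromosome segregation factor on the far side of PADI6, had 21764 and 21632, against 26308 (-0.26 ± 0.139, not called). CROCC (-0.74 ± 0.254), NBPF1 (-0.08 ± 0.133) and ARHGEF10L (-0.62 ± 0.712, from 7 and 7 counts under the hairpins against 11 in the control) were not called. MFAP2, IGSF21, KLHDC7A and PAX7 had 0 counts in every library, and ACTL8 had 4 and 2 under the hairpins, against 1 in the control.

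**Figure D3:**
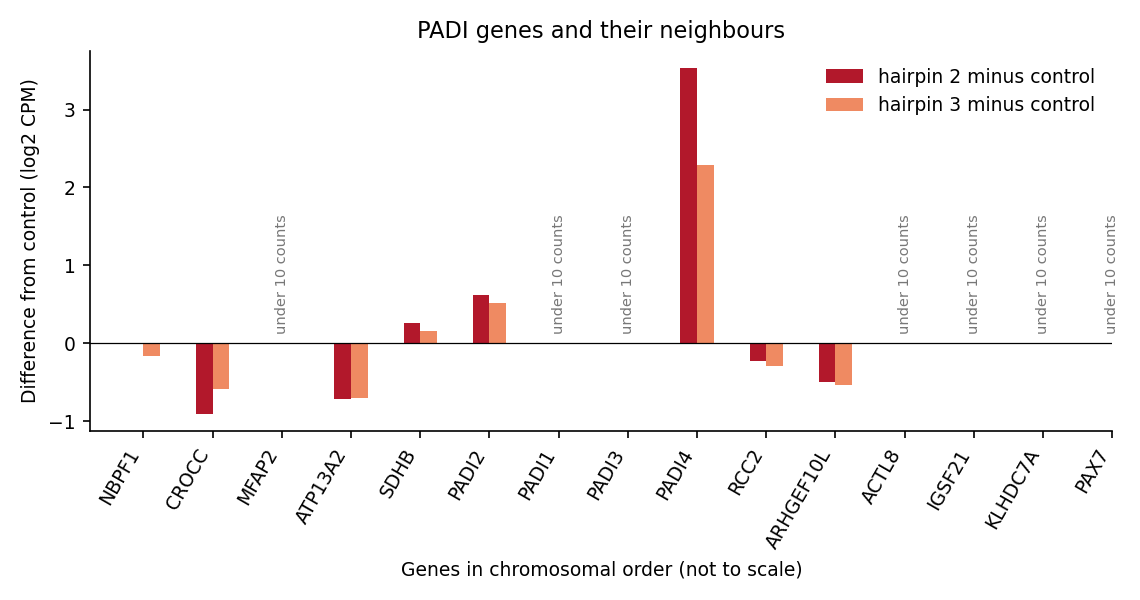
Log2 CPM difference from the control library under each hairpin for the PADI genes and their protein-coding neighbours in chromosomal order, not to scale. PADI4 reaches 3.53 and 2.28, while the tested neighbours lie between -0.91 and 0.26, and genes with under 10 counts in every library have no bar.

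The machinery of extracellular traps, which PADI4 serves, made up the next list. Of 33 listed genes 31 were tested, 11 rose, 2 fell and 18 were not called, with a median log2 fold change of 0.27, against -0.01 over all genes tested. The share called over all genes was 5.49% higher and 3.21% lower. NCF1, a subunit of the NADPH oxidase, whose oxidants can start trap formation, had 545 and 269 counts under hairpins 2 and 3, against 36 in the control (3.52 ± 0.444), but its near-identical pseudogenes make the count uncertain. Of the granule proteases, PRTN3 rose to 14914 and 13672 counts under the hairpins, against 3363 in the control (2.11 ± 0.151), while CTSG fell to 1672 and 2183, against 6837 (-1.81 ± 0.141). The granule protease ELANE was barely detected, with 4 and 1 counts under the hairpins, against 10 in the control (-1.93 ± 0.874, not called). ITGAM, the alpha chain of the adhesion receptor Mac-1, had 892 and 463, against 217 (1.67 ± 0.315, edgeR quasi-likelihood adjusted p = 0.00276). ITGB2, the beta chain of the same receptor, had 16079 and 12972, against 5736 (1.36 ± 0.163). The other 7 that rose had log2 fold changes from 0.61 to 1.29. CDK6, a cell cycle kinase also linked to trap release, fell (-0.65 ± 0.137). MPO had 0.23 ± 0.295 and the chromatin protein HMGB1 -0.20 ± 0.157, and neither was called. With robust empirical Bayes 5 rose and 2 fell, and NCF1 and ITGAM were not called there. ITGAM was also lost with DESeq2.

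Calcium, which the enzymes need, enters and leaves the cytosol through proteins of another list. Of 30 matched genes 29 were tested, 8 rose and 1 fell, with a median of 0.33, where 5.49% of all genes were called higher and 3.21% lower. S100A9, a calcium-binding protein of granulocytes and monocytes, had 704 and 404 counts under hairpins 2 and 3, against 108 in the control (2.38 ± 0.323, edgeR quasi-likelihood adjusted p = 0.000153). Its partner S100A8 had 149 and 90, against 40 (1.60 ± 0.408). Of the 3 inositol trisphosphate receptors, which release calcium from stores, 1 rose, 1 fell and ITPR2 (-0.04 ± 0.151) was not called. ITPR1 had 3254 and 2479 counts under the hairpins, against 1589 in the control (0.87 ± 0.171, edgeR quasi-likelihood adjusted p = 0.00349), whereas ITPR3 had 2490 and 3488, against 5910 (-0.97 ± 0.154, adjusted p = 0.000669). PLCB2, a phospholipase that makes inositol trisphosphate, rose (0.82 ± 0.193). Its call was lost with DESeq2, with robust empirical Bayes and when genes under a mean of 1 CPM were left out. The other listed phospholipases of this kind, PLCG2 (0.43 ± 0.146) and PLCG1 (-0.39 ± 0.136), were not called. The store-operated entry genes STIM2, ORAI2 and ORAI3 and the calcium pump gene ATP2A3 were the other 4 that rose, and they are named after their values were seen. In GENCODE 29, 52.9% of the ORAI3 exon length is shared with AC135048.1 on the same strand, which makes its count uncertain. STIM1, named likewise, had 0.45 ± 0.154 and was not called. The ATP2A3 call (0.47 ± 0.139, edgeR quasi-likelihood adjusted p = 0.0471) was lost with robust empirical Bayes, with upper quartile factors and when genes under a mean of 1 CPM were left out. S100A9 was not called with robust empirical Bayes, nor S100A8 with DESeq2 or without genes under a mean of 1 CPM. The calmodulin gene CALM3 (0.10 ± 0.144) and the calcium pump gene ATP2A2 (0.33 ± 0.152) were not called.

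Arginine is also used by methyltransferases, which act on the same residue in proteins, and by the enzymes of its own metabolism. Of 25 tested genes of arginine methylation, synthesis and transport 0 rose and 1 fell in edgeR (6 at an unadjusted p under 0.05; 0 called with DESeq2), with a median of -0.03, where 8.70% of all genes were called in either direction. The gene that fell was SLC7A2, a transporter of cationic amino acids, with 4718 and 5794 counts under hairpins 2 and 3, against 7660 in the control (-0.53 ± 0.135, edgeR quasi-likelihood adjusted p = 0.0226), a call lost with DESeq2 and when genes under a mean of 1 CPM were left out. ASS1, which makes the precursor of arginine, had 30689 and 32433 counts under the hairpins, against 40047 in the control (-0.32 ± 0.146, not called). SLC7A1, another arginine transporter, had -0.03 ± 0.138.

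Among genes for known protein substrates of the enzymes, 20 of 26 were tested, 2 rose and 1 fell, with a median of 0.01. Of all genes 5.49% were called higher and 3.21% lower. HSPA5, a chaperone of the endoplasmic reticulum, had 30583 and 26630 counts under hairpins 2 and 3, against 16825 in the control (0.79 ± 0.157, edgeR quasi-likelihood adjusted p = 0.00404). The chemokine CXCL8 had 1500 and 1237, against 705 (0.98 ± 0.173, adjusted p = 0.00168 in the same edgeR fit). VIM, which encodes the intermediate filament vimentin, had 24884 and 25439, against 35581 (-0.48 ± 0.141), a call lost with robust empirical Bayes and when genes under a mean of 1 CPM were left out. The 2 with the highest mean CPM over the 3 libraries, ACTB (0.54 ± 0.215) and RPS2 (-0.20 ± 0.19), were not called. Of the epidermal and hair substrates, FLG and KRT1 had 0 counts in every library. KRT10 had 564 and 401 counts under the hairpins, against 487 in the control, and TCHH had 13 and 14, against 9, and neither was called.

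Of 14 tested factors known to act at PADI promoters or to partner PADI4, 0 rose and 1 fell in edgeR (3 at an unadjusted p under 0.05; 0 higher and 1 lower with DESeq2), with a median of -0.20, a count near the 8.70% of all genes called in either direction. JUN, a component of AP-1, had 543 and 665 counts under hairpins 2 and 3, against 1150 in the control (-0.91 ± 0.164, edgeR quasi-likelihood adjusted p = 0.00191). The histone demethylase KDM1A (-0.19 ± 0.131) and the deacetylase HDAC1 (0.17 ± 0.133) were not called.

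**Figure D4:**
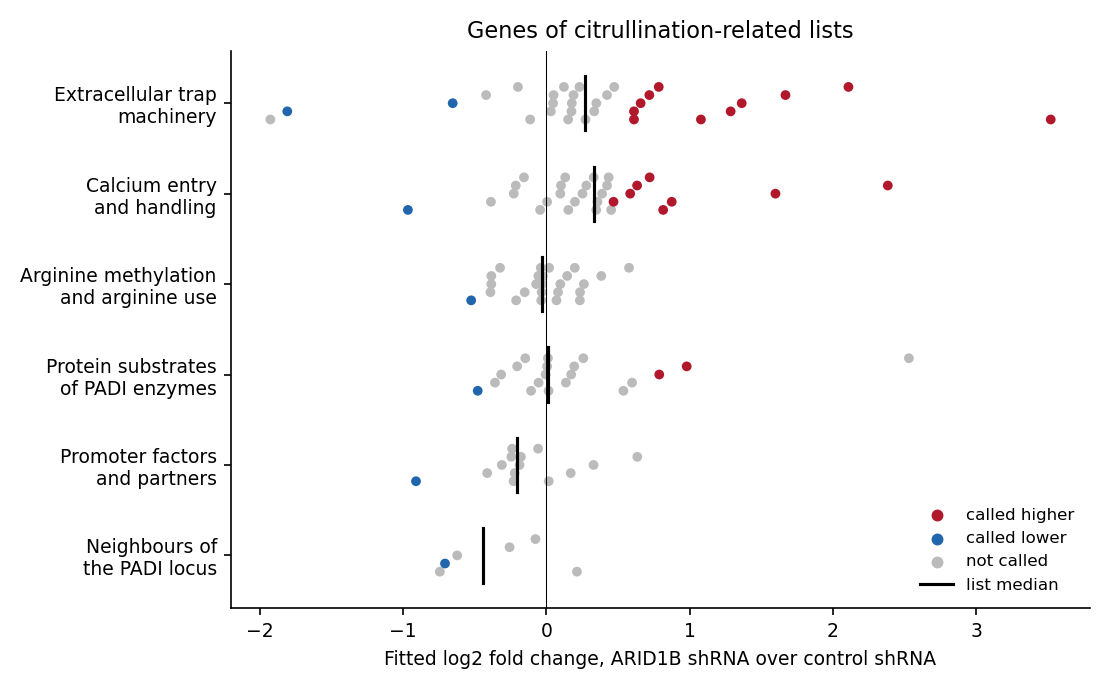
Fitted log2 fold change (ARID1B shRNA over control shRNA) of the tested genes of each list, 1 point per gene, coloured by the call of the edgeR fit over all genes, with the list median as a bar. Medians lie at 0.27 for trap machinery and 0.33 for calcium handling, and between -0.44 and 0.01 for the other lists.

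Markers of several blood cells moved in the same libraries as PADI4, and their part in its level was not tested. In bulk RNA more cells of a type and more RNA per cell cannot be told apart. The list of eosinophil, basophil and mast cell markers, with 10 of 11 above 3 counts in some library, summed to 2145 and 1126 CPM under hairpins 2 and 3, against 92.3 CPM in the control, with FCER1A at 0 throughout. Mature neutrophil markers, 7 of 12 above 3 counts, summed to 213 and 220 CPM under the hairpins, against 143 CPM in the control, with CEACAM8 at 0 and FCGR3B at 3 and 0 counts, against 1. CSF3R made up most of that sum, at 149 and 178 CPM, against 130 CPM, and was not called, while MMP9, CXCR2 and CAMP were called higher. Monocyte and macrophage markers, 7 of 7 matched above 3 counts, summed to 74.4 and 51.8 CPM, against 32.0 CPM. Markers of T, NK and B cells, 4 of 6 above 3 counts, summed to 61.4 and 46.5 CPM, against 33.7 CPM, with MS4A1 at 0. Erythroid and megakaryocyte markers, 3 of 7 above 3 counts, summed to 51.1 and 22.4 CPM, against 7.02 CPM, with HBA1, PF4 and GP9 at 0. Most of that sum under the hairpins was ITGA2B, at 45.5 and 16.7 CPM, against 2.24 CPM in the control, while EPOR and ALAS2 were not called. Promyelocyte markers, all 8 above 3 counts, summed to 14567 and 12537 CPM, against 11522 CPM. Of that sum MPO held 13908 and 11901 CPM under the hairpins, against 10998 CPM in the control, and was not called, while PRTN3 was called higher and CTSG and MS4A3 lower. Markers of keratinocytes, fibroblasts and packaging cells, 4 of 8 above 3 counts, summed to 18.5 and 23.1 CPM, against 24.6 CPM, nearly all of it EPCAM, with KRT5 and DSG3 at 0. The trap list shares 5 genes with the promyelocyte list.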

How the data were processed

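RNA of 3 NB4 libraries was compared, 2 with an ARID1B shRNA and 1 with a control shRNA. The authors deposited raw read counts per Ensembl gene ID. STAR, featureCounts, Cufflinks and hg19 are named per the submitters' processing notes. Their versions, the annotation and the strand setting were not given in the sources used here, so reads of overlapping antisense genes cannot be told apart. GENCODE 29, on another build, named 52338 of 57773 IDs and gave exon lengths. Where a symbol had several IDs, the one with most counts was kept. ORAI1, MRC1 and PADI6 were not matched. Promoter windows came from RefSeq (GRCh38.p14), whose table has no PADI3 entry.

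Counts were filtered with filterByExpr (minimum count 10), which kept 20382 genes, scaled by TMM and fitted with edgeR 4.0.16 in R 4.3.3 (glmQLFit with legacy = FALSE, glmQLFTest, two-sided), tested on simulated data. Standard errors are the log2 fold change over the root of F. DESeq2 1.42.0 was an alternative. P-values rest on the spread among these libraries alone, and it may be technical. Ratio intervals are exact conditional binomial ones.

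Members and gene lists were chosen with earlier results of these data known, and 1 gene of the trap list is not reported here or counted in it. Named were ARID1B, the members, the locus neighbours, in each other list up to 4 called genes with the largest change in each direction and the 2 with the highest mean CPM, and the 3 genes most like each tested member. Some further genes of the calcium list were named after their values were seen.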

Additional observations from a re-analysis of the deposited data

How the results depend on the processing

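No paired analysis was possible because there was 1 control library for 2 hairpin libraries and the labels name no pairs. The log2 differences of PADI4 and PADI2 from control moved by less than their counting interval or the spread between hairpins under 3 other scalings and prior counts of 0.5 and 5. Leaving out 1 hairpin library, the mean difference of PADI4 (2.91) ranged from 2.28 to 3.53 and that of PADI2 (0.57) from 0.52 to 0.62. PADI3, near the floor, had a mean of 1.01, and of 1.40 and 0.66 with prior counts of 0.5 and 5. With the longest coding transcript as length (chosen after seeing the data) PADI4 per length was 7.59-fold and 3.42-fold PADI2 under hairpins 2 and 3, against 0.998-fold in the control.

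Of all genes, 1774 were called, 960 with a mean CPM of at least 1, 1052 with DESeq2 and 0 in edgeR without a filter (3218 at an unadjusted p under 0.05), where each list also had 0 (13 trap, 9 calcium, 4 arginine, 6 substrate, 2 neighbour and 2 promoter factor genes at an unadjusted p under 0.05; DESeq2 on filtered genes called 11, 7, 0, 4, 1 and 1). Trap genes called went to 7 of 31 with robust empirical Bayes (13 in the reported fit). The arginine list had 1, 3 with library size alone, 2 with upper quartile factors, with DESeq2 size factors and with the legacy fit, and 0 when genes under a mean of 1 CPM were left out (edgeR, 6 at an unadjusted p under 0.05) and with DESeq2. Promoter factors had 1, and 2 with library size alone, upper quartile factors and the legacy fit. Why these counts changed was not tested. The 1 residual degree of freedom and the lone control limit every call.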
